A study of Mus musculus with 2 samples.

Results

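The nuclear-encoded subunits of the respiratory chain and of ATP synthase were taken by gene symbol: the Nduf subunits of complex I, Sdha to Sdhd of complex II, the Uqcr genes of complex III, the Cox4 to Cox8 genes of complex IV and the Atp5 genes of complex V. The rule found 87 of 31253 gene rows, with 86 symbols, since Atp5o stands under 2 gene identifiers. Of these rows, 38 belonged to complex I, 4 to complex II, 8 to complex III, 19 to complex IV and 18 to complex V. The respiratory chain passes electrons from NADH and succinate to oxygen in the inner mitochondrial membrane and pumps protons as it does so, and ATP synthase uses the proton gradient to make ATP. Most of its subunits are encoded in the nucleus and imported, while a small set that includes the catalytic core of complex IV is encoded by mitochondrial DNA. Mature neutrophils are known for few mitochondria and for a reliance on glycolysis.

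Single-cell RNA was captured on the BD Rhapsody microwell system from MB49 tumours, grown from a mouse bladder cancer line, after a flow sort for live CD45+ cells, with 1 library for each genotype label (wt and Lcn2-ko). The hosts were lethally irradiated female mice given male marrow, WT for the wt library and Lcn2-KO for the other, which the submitters present as a stand-in for Lcn2 loss in myeloid cells only, although marrow also gives rise to lymphocytes and host cells keep Lcn2. Lcn2 encodes lipocalin 2, an iron-siderophore binding protein of neutrophils, and the series asked what it does for tumour neutrophils. Both libraries are labelled female, while the protocol speaks of male and female mice, and the number of mice pooled is not given in the sources used here. With 1 library per label there is no replicate, so no test was run, and a difference between the labels cannot be told apart from a difference between 2 libraries.

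The libraries held 7974 and 7788 cell barcodes with 42069099 and 40959725 UMIs (unique molecular identifiers, 1 per captured RNA molecule), at medians of 3574.5 and 3570 UMIs per barcode, and shared 4 barcodes. Cells were sorted into classes by marker genes, which placed 83.9% of kept wt cells and 83.0% of kept cells of the library labelled Lcn2-ko. The classes compared, each with 100 cells or more per library, were neutrophils (560 wt and 321 Lcn2-ko cells), monocyte-macrophages (512 and 565), dendritic cells (577 and 369), T cells (2946 and 3264) and NK cells (171 and 243). A class with keratin, collagen or muscle-type markers and no UMI of Ptprc, the gene for CD45, held 1582 and 1410 cells despite the CD45 sort. Class names are short for cells that resemble the type by these markers, such as neutrophil-like cells. The neutrophil markers summed to 16025 and 17450 CPM in neutrophils against 362 and 381 in T cells. Lcn2 itself was read at 211 CPM (UMIs per 1000000 of the class) in wt neutrophils and at 152 CPM in neutrophils of the library labelled Lcn2-ko, so the library labelled Lcn2-ko still held Lcn2 tags; whether the deleted part covers the tagged 3′ end is not given in the sources used here.

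The mouse promoter table of RefSeq (build GRCm38.p6, 250 bases before to 50 after each gene start) held an entry for 69 of the 87 rows, which stood for 68 genes. Windows around matches to the NRF1 letters (the capitals of the Atp5g2, Atp5k, Cox6a1 and Ndufa11 windows) and to the YY1 letters AAGATGGC are shown because both factors are textbook regulators of nuclear genes for mitochondria and because the ratio of their share among the members to their share among all genes was the highest of the 5 motifs searched. The matched letters are in capitals, and each window is read 5′ to 3′ on the strand of its gene. All lie before the gene start of their RefSeq entry, because matches that reached past it are not shown. The gene coordinates given elsewhere in this text come from another annotation. There the minus-strand genes Atp5g2 and Atp5j start at 102672352 and 84835625, so their windows lie inside the gene. Atp5k starts there at 108434448, within its window. Of the 10 member genes with the YY1 letters, only Atp5j had a match wholly before the start of a RefSeq entry. That entry starts inside the annotated gene, and the Atp5j entry at the annotated start held no YY1 letters. Uqcrc1, which also held the NRF1 letters, had no match wholly before the start of its RefSeq entry. The NRF1 letters read the same on both strands.
Atp5g2, chr15:102671055-102671114, minus strand: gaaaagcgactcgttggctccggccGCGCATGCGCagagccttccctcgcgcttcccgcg
Atp5k, chr5:108434415-108434474, minus strand: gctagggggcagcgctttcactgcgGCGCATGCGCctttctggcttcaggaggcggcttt
Cox6a1, chr5:115349086-115349145, minus strand: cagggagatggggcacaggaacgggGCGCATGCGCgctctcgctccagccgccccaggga
Ndufa11, chr17:56717677-56717736, plus strand: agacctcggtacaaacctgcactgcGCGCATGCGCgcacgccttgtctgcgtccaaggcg
Atp5j, chr16:84835032-84835089, minus strand: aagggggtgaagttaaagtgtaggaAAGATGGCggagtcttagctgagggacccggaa

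The NRF1 letters stood on either strand of the promoters of 5 of 68 member genes (7.35%), against 1.07% of 27025 genes in the table. Among genes that reached 20 CPM over all classed cells, they stood in 4 of 60 members (6.67%), against 2.34% of 5559 genes. The YY1 letters stood in 10 member genes (14.7%), against 3.19% of all genes, and in 9 members at 20 CPM (15%), against 5.72%. The ETS letters CCGGAAG stood in 17 (25%), above the 9.93% of all genes, and in 15 members at 20 CPM (25%), near the 21.5% of genes there. The Sp letters GGGCGG stood in 28 (41.2%), close to the 38.2% of all genes. They stood in 26 members at 20 CPM (43.3%), below the 72.2% of genes there. The TATA letters TATAAA stood in 8 (11.8%), against 15.7% of all genes, and in 4 members at 20 CPM (6.67%), against 8.87%. These are matches of letters in short windows, and 5 motifs were searched in all.

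The members together held 1.47% of all UMIs of classed wt cells and 1.54% of those in the other library, and 73 of the 87 rows reached 20 CPM over all classed cells in at least 1 library. ATP synthase was the largest group at 0.546% and 0.571% of UMIs, followed by complexes I (0.376% and 0.390%) and IV (0.370% and 0.391%) at nearly equal shares, complex III at 0.128% and 0.133%, and complex II at 0.0524% and 0.0525%. A level here is a share of 3′-tag UMIs and was not divided by transcript length. Cox8b and Cox8c, tissue-restricted forms of a small complex IV subunit, had no UMI in any class. Ndufa4 was counted with complex I by its symbol, although its protein is known as a component of complex IV.

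Neutrophils held far less of the module than any other class compared. Their summed level was 5235 CPM (95% interval 5096 to 5377) for wt and 4925 CPM (4732 to 5124) for the library labelled Lcn2-ko, against 14505 and 15309 CPM in T cells, the largest class. These and all later intervals cover counting error only. The level in neutrophils was lower than in T cells by a log2 difference of -1.47 in wt and -1.64 in the other library. Monocyte-macrophages (14370 and 14922 CPM), NK cells (14205 and 14731) and dendritic cells (13138 and 14114) lay close to T cells in both libraries, the furthest being dendritic cells of wt with a log2 difference of -0.14. The Ptprc-negative cells were the highest class at 16236 and 16404 CPM over all their cells. By the cycling split given below, their cycling cells were at 18555 and 18884 CPM, against 17226 and 17919 in cycling T cells. Their other cells were at 13229 and 13542 CPM, below the 13504 and 14301 of other T cells. The part of cycling and of depth in the rank of this class was not tested. B cells (37 and 31 cells) and mast cells or basophils (84 and 62 cells) were too few to compare, and the median share per cell was 0.812% and 0.908% in B cells and 1.08% and 1.07% in mast cells or basophils.

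**Figure D1:**
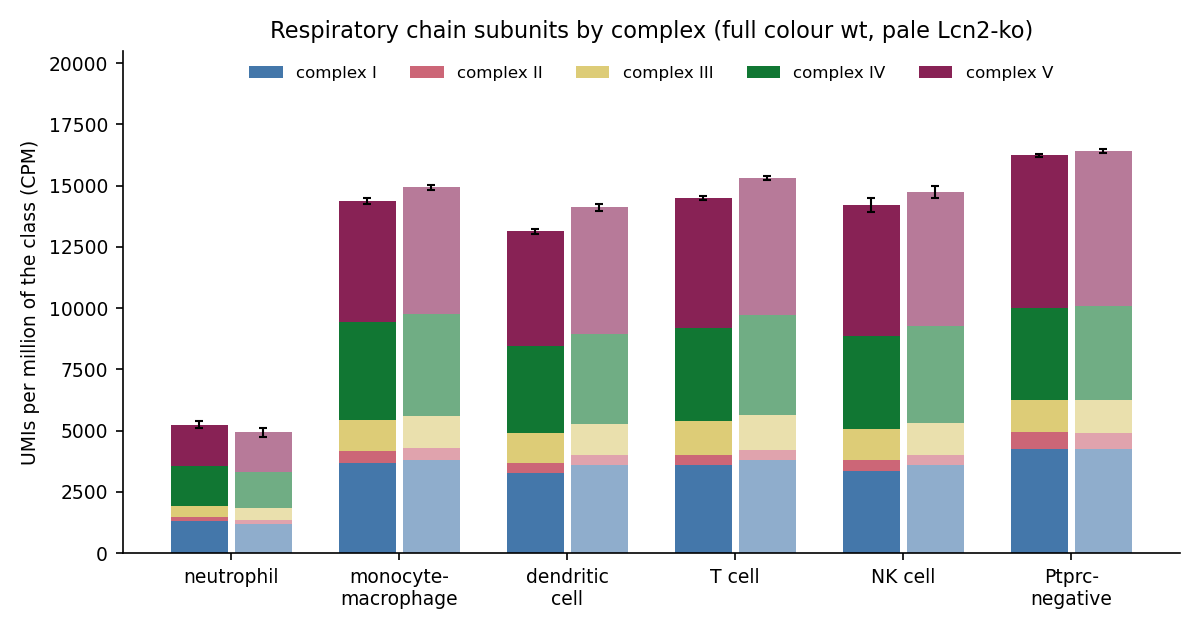
Summed UMIs of the respiratory chain subunits per 1000000 UMIs of each class (y axis, CPM), stacked by complex, with wt in full colour and the library labelled Lcn2-ko in pale colour. Error bars are 95% Poisson intervals of the sum. The neutrophil bars, at 5235 and 4925 CPM, stand far below those of the other 5 classes, which lie between 13138 and 16404 CPM.

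Per cell the gap was wider than in the sums. The median neutrophil held 4 UMIs of the module in each library, or 0.289% and 0.316% of its UMIs, while the median T cell held 36 and 40 UMIs, or 1.33% and 1.40%. After every cell was thinned to 800 UMIs, the median neutrophil held 2 UMIs of the module in both libraries and the median T cell 11. Within neutrophils the share was 0.297% in the shallower cells of wt, those at or below the median depth, and 0.615% in the deeper cells, and 0.326% and 0.567% in the library labelled Lcn2-ko. The deeper cells of every class compared also held a larger share, although by less: 1.55% against 1.23% in wt T cells and 1.64% against 1.3% in T cells of the other library. Neutrophils were the shallowest class compared, with medians of 1411.5 and 1281 UMIs against 2723.5 and 2827.5 in T cells. Markers of other classes were read in neutrophils: those of T cells at 431 and 461 CPM (5511 and 5776 in T cells), those of monocyte-macrophages at 618 and 623 CPM (6714 and 6799 in their own class) and those of Ptprc-negative cells at 539 and 405 CPM (10572 and 10531 in theirs). Markers of dendritic cells were at 268 and 162 CPM and those of mast cells or basophils at 368 and 32.1 CPM. The part of depth and of RNA from other cells in the neutrophil level was not tested.

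Of 71 members at or above 20 CPM, 70 were at least 1.5-fold lower in neutrophils than in T cells in both libraries and none was higher. Of all 6525 genes measured in the same way, 58.8% were at least 1.5-fold lower and 17.6% higher, so much of the neutrophil transcriptome stood lower on this scale. The median member differed by -1.58 and -1.76 on the log2 scale, against -1.13 and -1.02 for all genes. By complex, the lower members were 32 of 33 in complex I, 4 of 4 in complex II, 6 of 6 in complex III, 11 of 11 in complex IV and 17 of 17 in complex V. The exception, Ndufa7, an accessory subunit of complex I, differed by -0.58 in wt, just inside the limit, and by -0.93 in the other library.

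The summed complexes differed by unlike amounts. ATP synthase had the widest gap between neutrophils and T cells, at -1.66 in wt and -1.79 in the other library. Complex I differed by -1.45 and -1.65, complex II by -1.46 and -1.56, complex III by -1.55 and -1.52, and complex IV by -1.23 and -1.48. Cox8a, a small subunit of complex IV (chr19:7215153-7217616), kept the highest level of all members in neutrophils, with 313 CPM in wt and 279 in the other library against 495 and 517 in T cells. Cox7c, another small complex IV subunit, was at 219 and 182 CPM in neutrophils against 684 and 731 in T cells. Atp5b, the catalytic beta subunit of ATP synthase, stood at 89.6 and 104 CPM against 337 and 344. Ndufa12, an accessory subunit of complex I, stood at 21.4 and 24.1 CPM against 104 and 106.

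**Figure D2:**
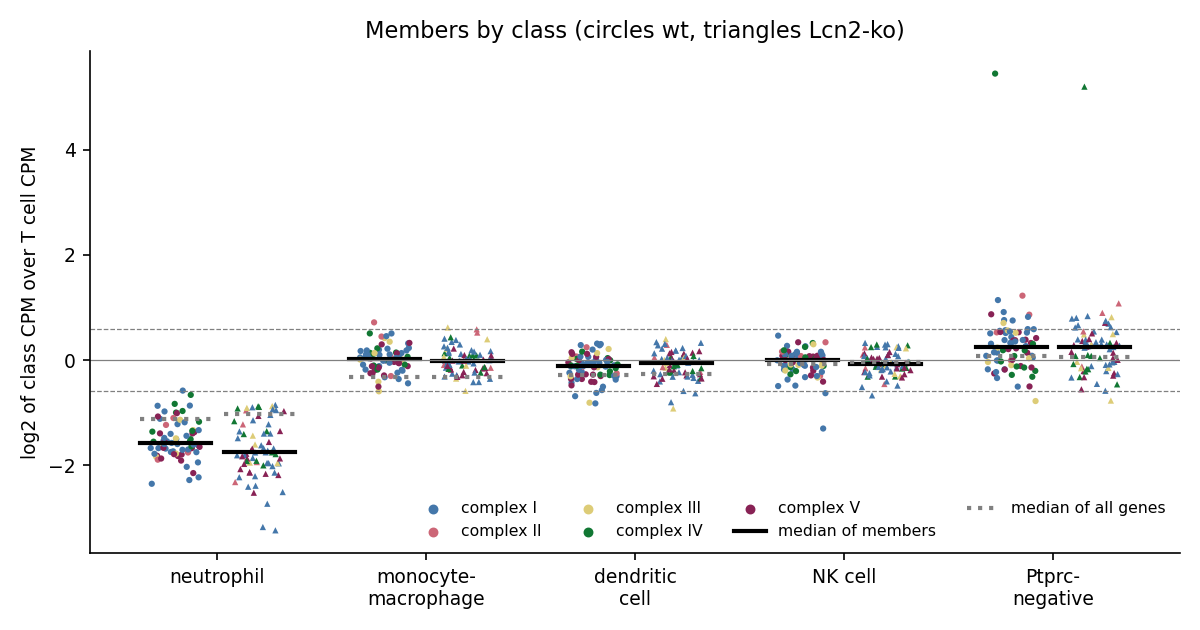
Each point is 1 member, placed by the log2 ratio of its CPM in a class over its CPM in T cells of the same library (circles wt, triangles Lcn2-ko), coloured by complex. Black bars mark the median of members, grey dotted bars the median of all genes, and dashed lines the 1.5-fold limit. In neutrophils the members center on -1.58 and -1.76, and the single high points in Ptprc-negative cells are Cox7b2 at 5.45 and 5.20.

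Other mitochondrial lists were also low in neutrophils relative to T cells, and glycolysis was not. Of all genes 58.8% were at least 1.5-fold lower, with medians of -1.13 and -1.02. The list medians of the mitochondrially encoded subunits (-0.80 and -1.11) and of the regulators of mitochondrial gene expression (-1.10 and -1.16) lay near these. The 13 subunits encoded by mitochondrial DNA summed to a log2 difference of -0.81 in wt and -1.10 in the other library, and 12 of the 12 measured were at least 1.5-fold lower in both. The ratio of nuclear-encoded to mitochondrially encoded subunit UMIs, taken from the class sums, was 0.22 and 0.25 in neutrophils, against 0.346 and 0.361 in T cells. Median cells gave another picture. UMIs of mitochondrial genes made 0.541% and 0.652% of the median neutrophil, against 3.69% and 3.87% of the median T cell. The module made 0.289% and 0.316% against 1.33% and 1.40%, so between median cells the mitochondrial gap was the wider. Citric acid cycle enzymes were lower in 12 of 13 cases, with medians of -1.89 and -1.65, and mitochondrial ribosomal proteins in 42 of 45, with medians of -1.85 and -1.64. Of 18 measured assembly factors 14 were lower and 1 higher. Cox17, the copper chaperone of complex IV, was the most abundant of them, at 328 and 337 CPM in neutrophils against 182 and 192 in T cells. Ucp2, an inner membrane carrier and the most abundant gene of the electron and nucleotide carriers, stood at 562 and 585 CPM against 1167 and 1208. Of the 8 measured regulators of mitochondrial gene expression, 5 were lower and none higher, with medians of -1.10 and -1.16. Of 14 glycolysis genes 3 were higher and 3 lower, with medians of 0.19 and 0.09. Ribosomal protein genes summed to -1.74 and -1.97, a gap of the same order as that of the module.

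Monocyte-macrophages, dendritic cells and NK cells had nearly the T cell pattern. Among about 70 measured members each, monocyte-macrophages had 1 lower, dendritic cells 3 lower and NK cells none, and no member was higher in any of them. The shares over all genes were 30.7% lower and 17.1% higher for monocyte-macrophages, 28.0% and 16.1% for dendritic cells, and 10.9% and 6.52% for NK cells. Uqcrh, the hinge subunit of complex III (chr4:116066965-116075071), was at 494 and 511 CPM in T cells and at 463 and 454 in NK cells. It stood at 327 and 340 CPM in monocyte-macrophages, 288 and 300 in Ptprc-negative cells, 282 and 270 in dendritic cells and 158 and 132 in neutrophils. The 2 lymphocyte classes therefore had higher levels of Uqcrh than the other 4 classes in both libraries. Ndufa13, an accessory subunit of complex I also known for a role in cell death, and Ndufv3, a small subunit of its NADH-binding module, were the other members lower in dendritic cells, with log2 differences of -0.69 and -0.80 for Ndufa13 and -0.82 and -0.63 for Ndufv3. Cox5a, a complex IV subunit, was highest in monocyte-macrophages at 556 and 635 CPM, against 392 and 471 in T cells.

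Ptprc-negative cells had the highest levels of complexes I, II and V over all their cells. Of these cells 674 of 1582 in wt and 566 of 1410 in the other library were cycling, by the split given below. In T cells 479 of 2946 and 542 of 3264 were. The contrasts of complexes and members with T cells were not split by cycling. Of 74 members measured in Ptprc-negative cells 11 were at least 1.5-fold higher than in T cells in both libraries and 1, Uqcrh, was lower, against 30.3% and 25.9% of all genes. Complex II, succinate dehydrogenase, which also serves the citric acid cycle, stood furthest from T cells, with a log2 difference of 0.75 in wt and 0.71 in the other library. Sdhc, a membrane anchor gene, which lies at chr1:171127165-171150603, was at 225 and 211 CPM against 96.3 and 100 in T cells. Sdhd, the other anchor, stood at 198 and 203 CPM against 109 and 109. Sdha, the flavoprotein that oxidises succinate, stood at 198 and 202 CPM against 138 and 139. Sdhb, the iron-sulfur subunit, was at 62.2 and 60.2 CPM against 62.6 and 65.5 and did not share the difference. Other members at least 1.5-fold higher included Atp5g1, 1 of the 3 genes for the ring subunit c of ATP synthase, at 306 and 318 CPM against 167 and 195. Ndufa9, an accessory complex I subunit, stood at 144 and 142 CPM against 65.3 and 79.8.

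Cox7b2, a form of complex IV subunit 7b that is known from testis, was read almost only in Ptprc-negative cells. There it had 600 wt and 480 Lcn2-ko UMIs, which made 41.4 and 36.2 CPM, and 27.6% and 25.8% of the cells held at least 1 UMI. In T cells, at lower depth, it had 9 and 11 UMIs, or 0.949 and 0.986 CPM, and 0.305% and 0.306% of cells held a UMI. NK cells had no UMI of it in either library, which allows up to 3. The gene lies at chr5:71442824-71548205 on the minus strand.

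Some subunits exist as several genes, and their proportions differed between classes by more than the counting intervals in some cases. Atp5g1, Atp5g2 and Atp5g3 encode the same mature subunit c. In T cells they gave 10.5%, 45.3% and 44.2% of their joint UMIs in wt and 11.1%, 43.1% and 45.8% in the other library. Atp5g1 gave 14.8% (95% interval 14.4 to 15.2) and 14.9% (14.4 to 15.3) in Ptprc-negative cells and 14.2% and 14.5% in monocyte-macrophages. In neutrophils, on 54 and 33 UMIs, it gave 12.6% (9.64 to 16.2) and 15.2% (10.7 to 20.7). Regulatory T cells, the T cells with Foxp3, took 49.5% (48.0 to 50.9) and 50.4% (49.0 to 51.8) from Atp5g3, against 40.7% and 43.6% in CD8 T cells. Cox7a2l, whose product is known to join complexes III and IV, gave 68.2% and 68.7% of the UMIs of the Cox7a group in T cells and 58.4% (57.4 to 59.5) and 60.6% (59.5 to 61.6) in Ptprc-negative cells. In dendritic cells it gave 74.0% (72.3 to 75.7) in wt and 67.8% (65.4 to 70.1) in the other library, intervals that do not overlap. This is 1 of many shares compared, and other intervals were also apart between the libraries. Those of Atp5g2 in T cells were 44.6 to 46.1 and 42.4 to 43.8. Cox7a1, the heart and muscle form, gave 0.308% and 0.546% in T cells and 0.976% and 1.02% in Ptprc-negative cells. The tissue-restricted forms Cox4i2, Cox6a2, Cox6b2 and Ndufa4l2 gave at most 3.12% of their groups in the classes compared, and Cox8a gave all UMIs of its group. Cox6a2, the heart and muscle form of Cox6a, had 0 UMIs in wt T cells, which allows a share of up to 0.125%, and 13 in T cells of the other library, or 0.454% (0.242 to 0.774). Near-identical sequences such as Cox5b and Cox5b-ps cannot be separated with certainty by short tags, and the split between them is uncertain. Ndufb1-ps, named a pseudogene and annotated as a non-coding transcript, nonetheless held 230 and 245 CPM over all classed cells.

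The comparison of the library labelled Lcn2-ko with wt gave small differences that pointed up in most classes. The summed module had log2 ratios of 0.10 (95% interval 0.09 to 0.12) for dendritic cells, 0.08 (0.07 to 0.09) for T cells, 0.05 (0.04 to 0.07) for monocyte-macrophages, 0.05 (0.01 to 0.09) for NK cells and 0.01 (0.01 to 0.02) in Ptprc-negative cells. In neutrophils the ratio was -0.09 (-0.16 to -0.02), from 5373 UMIs in wt and 2457 in the other library. That sign did not hold: it was 0.03 without the deepest 4% of cells, 0.06 as a mean over cells and 0.03 after thinning. The mitochondrially encoded subunits had ratios of -0.27 in neutrophils, -0.08 in dendritic cells, -0.04 in monocyte-macrophages, 0.02 in T cells, 0.03 in NK cells and -0.01 in Ptprc-negative cells.

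Few members passed 1.5-fold, and the shares were near or below those of all genes. Dendritic cells had none of 73 (all genes: 1.61% higher, 2.19% lower), T cells none of 72 (0.332% and 0.586%) and Ptprc-negative cells none of 75 (0.446% and 0.564%). In monocyte-macrophages 1 of 74 was lower and none higher, against 2.24% and 0.952% of all genes. In NK cells 3 of 72 were higher and 1 lower, against 8.25% and 8.47%. In neutrophils 3 of 63 were higher and 8 lower, against 13.0% and 9.43%, but the balance turned to 8 higher and 4 lower as a mean over cells and to 11 higher and 7 lower after thinning. CD8 T cells had 1 of 72 higher and none lower, against 1.28% and 2.02%, and regulatory T cells none of 74 higher and 2 lower, against 1.45% and 1.83%. The members called in CD8 T cells, regulatory T cells and monocyte-macrophages reached 20 CPM in the higher library only.

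**Figure D3:**
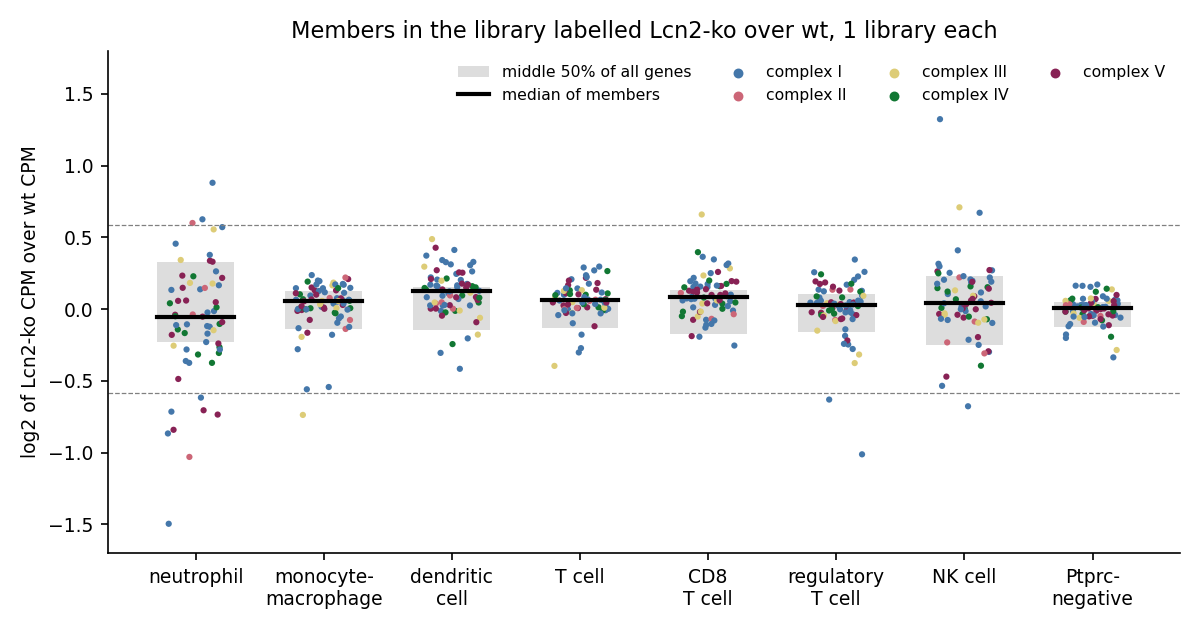
Each point is 1 measured member, placed by the log2 ratio of its CPM in the library labelled Lcn2-ko over wt within a class and coloured by complex. Grey bands span the middle 50% of all genes, black bars mark the median of members and dashed lines the 1.5-fold limit. Members spread widest in neutrophils and NK cells, the classes with the fewest UMIs, and in dendritic cells their median of 0.12 lies above 0.

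Although small, the ratios of members leaned to one side more often than those of all genes in some classes. Of the 73 members in dendritic cells 61 had a ratio above 0 (83.6%), against 52.0% of all genes, and the median was 0.12 against 0.01. In T cells 57 of 72 did so (79.2%), against 44.4% of all genes, with medians of 0.06 and -0.02. In CD8 T cells it was 55 of 72 (76.4% against 48.3%), in monocyte-macrophages 52 of 74 (70.3% against 50.1%), in NK cells 45 of 72 (62.5% against 49.3%) and in Ptprc-negative cells 42 of 75 (56.0% against 38.7%). Neutrophils leaned the other way, with 26 of 63 above 0 (41.3% against 54.3%) and medians of -0.05 and 0.04. The sign of the summed ratio in neutrophils did not hold under some alternatives, as given above. By complex, the T cell members above 0 were 23 of 33 in complex I, 4 of 4 in complex II, 5 of 7 in complex III, 10 of 11 in complex IV and 15 of 17 in complex V. Cox5a, in CD8 T cells, was the abundant member with the largest ratio there, at 399 CPM in wt and 526 in the other library, a log2 ratio of 0.40 (0.30 to 0.50). All classes share the same 2 libraries, so agreement between classes is not a replicate of the genotype difference.

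In neutrophils the members past 1.5-fold rested on few UMIs. The lower ones with at least 50 UMIs over both libraries were Atp5h, a stalk subunit of ATP synthase, from 111 to 68.2 CPM (114 and 34 UMIs), and Atp5j, another stalk subunit, from 86.7 to 52.1 CPM (89 and 26 UMIs). Atp5k, a small membrane subunit of ATP synthase, was at 68.2 and 38.1 CPM (70 and 19 UMIs), Ndufv3 at 43.8 and 24.1 CPM (45 and 12 UMIs) and Sdhc at 40.9 and 20.05 CPM (42 and 10 UMIs). Their log2 ratios were -0.70 (-1.30 to -0.14), -0.73 (-1.42 to -0.09), -0.84 (-1.66 to -0.09), -0.87 (-1.92 to 0.08) and -1.03 (-2.19 to -0.01). The ratio of Ndufv3 turned to 0.138 after thinning. Ndufc2 (41 and 13 UMIs) was also lower with a ratio of -0.62 (-1.64 to 0.31). Ndufb2 and Ndufb10 were lower, and Ndufa9, Ndufc1 and Sdhb higher, with fewer than 50 UMIs each. Of these, all but Ndufa9 reached 20 CPM in the higher library only, so the filter favours a difference. At a limit of 2-fold 2 members were lower and none higher.

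In the other classes the members with the lowest and highest ratios held more UMIs. In monocyte-macrophages Uqcrc1, a core subunit of complex III, was at 22.2 and 13.3 CPM, a ratio of -0.74 (-1.23 to -0.26). In CD8 T cells it was at 14.1 and 22.3 CPM, a ratio of 0.66 (0.13 to 1.21). In each of these classes only the higher library reached 20 CPM, so the filter itself favours a difference there. The same holds below for Ndufb7 and Ndufs5 in regulatory T cells, Ndufs5 in NK cells and Uqcr11 in T cells. In regulatory T cells Ndufb7, an accessory complex I subunit, was at 24.6 and 12.2 CPM (73 and 38 UMIs), a ratio of -1.01 (-1.62 to -0.43), and Ndufs5, another, at 29.3 and 18.9 CPM, a ratio of -0.63 (-1.13 to -0.14). In NK cells Uqcr10, a small complex III subunit, was at 40.9 and 66.9 CPM (25 and 56 UMIs), a ratio of 0.71 (0.01 to 1.45). Also in NK cells, Ndufb4 was at 57.3 and 35.8 CPM, a ratio of -0.68 (-1.43 to 0.07), and Ndufs5 was higher with 7 and 24 UMIs. In T cells the extremes were Ndufb11, an accessory complex I subunit, at 165 and 203 CPM, a ratio of 0.30 (0.20 to 0.39), and Uqcr11, the smallest complex III subunit, at 20.9 and 15.9 CPM, a ratio of -0.40 (-0.70 to -0.10). In dendritic cells Atp5j2, a small membrane subunit of ATP synthase, was at 76.4 and 103 CPM, a ratio of 0.43 (0.19 to 0.66), and Cox7a2l at 443 and 374 CPM, a ratio of -0.24 (-0.35 to -0.13).

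The direction of each member was also counted over classes that share the same 2 libraries. Of 63 members measured in all of neutrophils, monocyte-macrophages, dendritic cells, T cells, NK cells and Ptprc-negative cells, 5 were higher in all 6 (7.94%), near the 5.32% of all genes: Atp5a1, Atp5g1, Atp5l, Ndufb9 and Uqcr10. A further 22 were higher in 5 of 6 (34.9%), against 14.1% of all genes. Ndufb9, an accessory complex I subunit (chr15:58933756-58939488), had the largest median ratio of the 5, 0.28. Its level was 35.1 and 48.1 CPM in neutrophils, 75.4 and 88.9 for monocyte-macrophages and 59.2 and 74.4 for dendritic cells. It was 76.1 and 89.7 CPM in T cells, 54.0 and 86.0 in NK cells and 134 and 150 in Ptprc-negative cells. The interval of the ratio lay above 0 in all but neutrophils. For Atp5a1, the alpha subunit of ATP synthase, the ratios ran only from 0.03 to 0.21.

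Lower in 5 of 6 classes were 3 of the 63 members, Atp5j, Ndufa13 and Ndufb2, and none was lower in all 6; for all genes the share lower in at least 5 classes was 19.4%. Ndufa13 went from 144 to 117 CPM in T cells, a ratio of -0.30 (-0.41 to -0.19), and from 128 to 101 CPM in Ptprc-negative cells, a ratio of -0.34 (-0.44 to -0.23). In monocyte-macrophages it went from 106 to 87.5 CPM and in dendritic cells from 89.7 to 67.2 CPM, with intervals below 0 in both. Neutrophils, at 42.9 and 38.1 CPM, and NK cells, at 93.3 and 114.7 CPM, had intervals that held 0. Ndufb7 reached 20 CPM only in regulatory T cells, and there only in wt, but it was also lower in the larger classes. It had 185 and 135 UMIs in T cells, a ratio of -0.69 (-1.02 to -0.36), 78 and 37 in monocyte-macrophages, a ratio of -1.12 (-1.73 to -0.54), and 208 and 124 in Ptprc-negative cells, a ratio of -0.62 (-0.95 to -0.29). Ndufb7 was followed across classes after its values were seen.

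**Figure D4:**
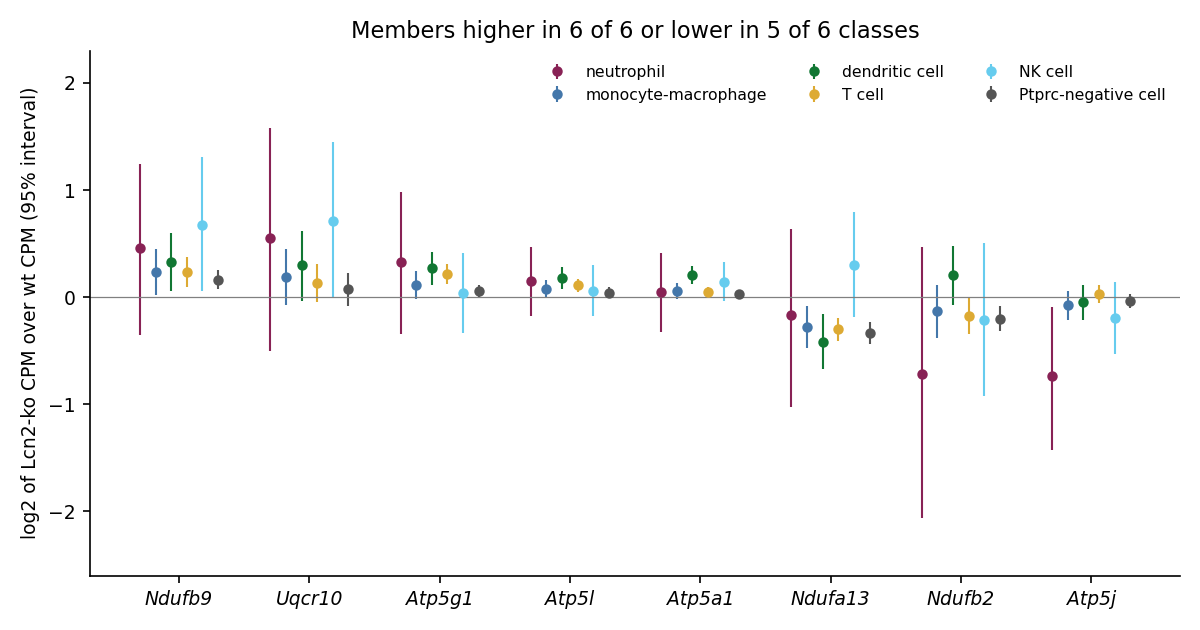
Log2 ratio of the library labelled Lcn2-ko over wt (y axis) for the 5 members higher in 6 of 6 classes and the 3 lower in 5 of 6, with 1 point per class and 95% counting intervals. Ndufb9 lies above 0 and Ndufa13 below 0 in most classes, and the widest intervals belong to neutrophils and NK cells.

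The other lists leaned upward in some of the same classes, in places by more than the module. The summed glycolysis genes had log2 ratios of 0.19 in CD8 T cells, where the module had 0.10, 0.15 in monocyte-macrophages (module 0.05) and 0.10 in Ptprc-negative cells (module 0.01). Mitochondrial ribosomal proteins had 0.15 in dendritic cells, where the module had 0.10. In T cells none of 22 measured assembly factors, 12 mitochondrially encoded subunits, 8 carriers, 13 citric acid cycle genes, 8 regulators, 51 mitochondrial ribosomal proteins or 14 glycolysis genes passed 1.5-fold, with list medians from -0.03 to 0.08. The lowest and highest T cell ratios were -0.34 for Dlst, a citric acid cycle enzyme, and 0.29 for Coa3, a complex IV assembly factor. In neutrophils the calls were 2 of 8 assembly factors lower, none of 11 mitochondrially encoded subunits, 1 of 6 carriers lower, and 1 of 8 citric acid cycle genes higher with 2 lower. None of 4 regulators passed there, 3 of 14 mitochondrial ribosomal proteins were higher and 1 lower, and 1 of 14 glycolysis genes was lower. The last was Pfkl, the liver form of phosphofructokinase, at 56.5 CPM in wt and 22.1 in the other library. Cs, citrate synthase, was at 79.9 and 46.1 CPM in neutrophils. Gapdh, the most abundant glycolysis gene, was at 1219 and 1233 CPM in neutrophils.

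Cycling cells, those with UMIs of at least 2 of 5 proliferation genes (Mki67, Top2a, Birc5, Cdk1 and Ccnb1), held more of the module than other cells of their class. In Ptprc-negative cells the level was 18555 CPM in 674 cycling cells and 13229 in 908 others of wt, and 18884 in 566 and 13542 in 844 of the other library. The log2 differences were 0.49 and 0.48. They were 0.46 and 0.42 in regulatory T cells, 0.35 and 0.33 in all T cells, 0.27 and 0.25 in CD8 T cells, 0.29 and 0.25 in NK cells, 0.22 and 0.18 for monocyte-macrophages and 0.11 and 0.18 for dendritic cells. The NK values rest on only 22 and 31 cycling cells. Of 75 measured members 18 were at least 1.5-fold higher in cycling Ptprc-negative cells in both libraries, against 12.1% of all genes, and of 72 in regulatory T cells 18 were, against 12.0%. The counts were 7 of 72 in all T cells (9.05% of all genes), 5 of 72 in NK cells (10.9%), 1 of 71 in dendritic cells (7.98%), 0 of 72 in monocyte-macrophages (3.81%) and 0 of 72 in CD8 T cells (8.25%). No member was lower in both libraries in these 7 classes, against 7.93% of all genes in Ptprc-negative cells, 15.6% in regulatory T cells, 10.0% in all T cells, 9.80% in NK cells, 5.04% in dendritic cells, 2.16% in monocyte-macrophages and 6.05% in CD8 T cells.

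Cycling cells were also deeper: the medians were 12043 against 6511 UMIs in wt Ptprc-negative cells and 5410 against 2354.5 in wt regulatory T cells. Among cells within the middle range of depth of the cycling cells, cycling cells were still deeper, with medians of 12043 against 9908.5 UMIs in wt Ptprc-negative cells, 5410 against 4808 in wt regulatory T cells and 6471.5 against 4460.5 in wt NK cells. The NK cells of like depth were only 10 cycling and 32 other cells in wt, and 15 and 19 in the other library. Among cells of like depth the difference was 0.44 and 0.37 in Ptprc-negative cells. It dropped to 0.16 and 0.24 in regulatory T cells and to 0.18 and 0.14 in all T cells, so depth moved with much of the difference there, and its part was not tested further. In dendritic cells of wt it was 0.03 (-0.01 to 0.07). The members with the widest gap in Ptprc-negative cells were Cox5a, at 401 CPM in cycling and 201 in other cells of wt and 442 and 225 in the other library, and Ndufa4, at 272 and 146 in wt and 261 and 129. In regulatory T cells Ndufa4 was at 313 and 159 CPM in wt and 345 and 173 in the other library. These genes were chosen after their values were seen.

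**Figure D5:**
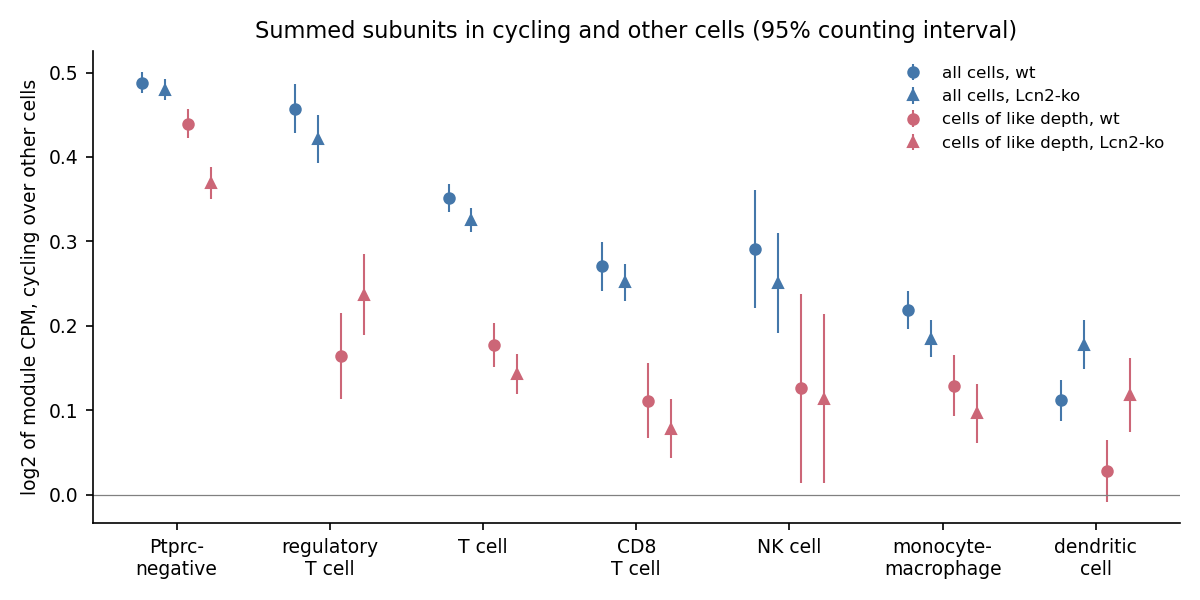
Log2 ratio of the summed module in cycling over other cells (y axis) by class, for all cells (blue) and for cells of like depth (red), with circles for wt, triangles for the library labelled Lcn2-ko and 95% counting intervals. All points but 1 have intervals above 0, and each red point lies below the blue point of the same class and library.

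Of the 87 rows, 10 did not reach 20 CPM in any class compared: Cox4i2, Cox6a2, Cox6b2, Cox7a1, Cox8b, Cox8c, Cox5b-ps, Ndufa4l2, Ndufa11 and the second Atp5o row.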

How the data were processed

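The deposited files hold counts: whole-number UMI counts per gene and cell barcode, 1 matrix per library. Cell Ranger and the mouse build mm10 are named in the submitters' processing notes without a version or a role. The labels' protocols describe 3′ tagged whole-transcriptome capture, so a level is a share of tags and not a level per length.

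Barcodes under 200 genes or above 20% mitochondrial UMIs were dropped, which left 7712 (wt) and 7547 (Lcn2-ko) cells. A cell was placed in a class when it held at least 3 of the class's markers and 2 more than of any other. These gate settings were chosen after seeing the data, by cell numbers and marker levels and not by the values of the module. Cells with mixed markers (567 and 617), with fewer than 3 markers (474 and 470) or with Ptprc beside keratin, collagen or muscle-type markers (202 and 195) were left out. No doublet caller was run. UMIs were summed per library and class and scaled to 1000000 (CPM). A gene was measured when it reached 20 CPM in either side of a comparison. With 1 library per label no test, p-value or standard error was computed, and a gene was called past 1.5-fold. Intervals at 95% were exact Poisson for sums, conditional binomial for ratios and Clopper-Pearson for shares. Counts of 0 were read against 3 counts.

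The members, marker lists and gene lists were chosen with earlier results of these data known. Named members were, per class, the 3 highest and 3 lowest ratios among those with at least 50 UMIs over both libraries, per complex the most abundant and most variable, all of complex II, the paralogues, those never measured, and the extremes and most abundant gene of each other list; from these the text prints a selection, and other names were chosen after their values were seen. The cycling split, its like-depth version, the split by depth and the counts of direction over classes were added after seeing the data. Promoters came from RefSeq, GRCm38.p6. The computation used Python 3.11.15, numpy 2.4.6, scipy 1.17.1 and pandas 2.3.3, and was checked on simulated data.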

Additional observations from a re-analysis of the deposited data

Results flagged for a closer look

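The log2 ratio of the summed module, Lcn2-ko over wt, had one sign in neutrophils and the other in the remaining classes: -0.088 in neutrophils, 0.103 in dendritic cells, 0.0778 in T cells, 0.0544 in monocyte-macrophages, 0.0525 in NK cells and 0.0148 in Ptprc-negative cells. Complex IV had the same split, with -0.154 in neutrophils against 0.0956 in T cells, 0.0671 in monocyte-macrophages, 0.0544 in dendritic cells and 0.0352 in Ptprc-negative cells. The difference between classes was not tested, each side is 1 library, and the sign in neutrophils for the summed module changed under some of the alternatives given next.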

How the results depend on the processing

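No paired analysis was possible because each label has 1 library, and for the same reason no replicate could be left out. Of the alternatives for the results that answer a comparison, 274 stayed within the set limits and 62 moved. For the summed module in neutrophils, -0.09 as reported, the log2 ratio was 0.0309 without the deepest 4% of cells, 0.0551 as a mean over cells and 0.0345 after thinning to 800 UMIs. The values that moved for the module elsewhere were 0.0988 in T cells and 0.0488 in Ptprc-negative cells when centred on the median of all genes, 0.0934 in NK cells and 0.0342 in Ptprc-negative cells after thinning, and -0.00405 in Ptprc-negative cells as a mean over cells. Ndufv3 in neutrophils reversed, from -0.87 to 0.138, after thinning. The cause was not tested.

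The other values that moved are counts of members past the limit. For Lcn2-ko over wt in neutrophils, reported as 3 higher and 8 lower, the counts were 6 higher at 1.3-fold, 0 higher and 2 lower at 2-fold, 0 higher and 3 lower at 50 CPM, 7 higher without the deepest cells, 8 higher and 4 lower as a mean over cells, 1 higher and 5 lower with mixed-marker cells kept, and 11 higher after thinning. For monocyte-macrophages, reported as 0 higher and 1 lower, the lower count was 3 at 1.3-fold, 0 at 2-fold, 0 at 50 CPM, 3 without the deepest cells, 2 as a mean over cells, 2 at a mitochondrial limit of 10% and 2 without ribosomal protein and mitochondrially encoded genes in the total, and thinning gave 5 higher and 3 lower. For dendritic cells, reported as 0 and 0, it was 3 higher and 1 lower at 1.3-fold, 6 higher and 2 lower after thinning, 1 lower with 1 more marker and 1 lower with the reduced total. For T cells, reported as 0 and 0, it was 1 lower at 1.3-fold and 1 lower with the reduced total. For NK cells, reported as 3 higher and 1 lower, it was 4 lower at 1.3-fold, 1 higher and 0 lower at 2-fold, 2 lower without the deepest cells, 3 lower as a mean over cells, 1 higher with mixed-marker cells kept, 13 higher and 9 lower after thinning, and 2 lower without the cell of highest level.

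Against T cells, monocyte-macrophages (reported as 0 higher and 1 lower) had 6 higher and 2 lower at 1.3-fold, 0 lower at 2-fold, 1 higher with 1 more marker, 1 higher without the deepest cells, 1 higher as a mean over cells, 0 lower with mixed-marker cells kept, and 1 higher and 0 lower after thinning. Dendritic cells (3 lower) had 5 lower at 1.3-fold, 0 at 2-fold and 5 after thinning, and NK cells (0 lower) had 1 lower after thinning. Ptprc-negative cells (11 higher and 1 lower) had 23 higher and 3 lower at 1.3-fold and 2 higher and 0 lower at 2-fold. The count of members lower in neutrophils than in T cells, 70 as reported, ranged from 56 at 2-fold to 72. In neutrophils of the library labelled Lcn2-ko the module rests on 2457 UMIs, which limits the precision of single members there.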
